A study of Mus musculus with 2 samples.

Results

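The genes described here are the 37 genes of the mouse mitochondrial genome, chosen as all genes whose symbol starts with mt-, out of 55536 annotated genes. They comprise 13 protein genes, 2 ribosomal RNA (rRNA) genes and 22 transfer RNA (tRNA) genes, and each has 1 annotated transcript. Total RNA was taken from the adrenal glands of 36-day-old males of B6CASTF1/J, a hybrid bred from C57BL/6J mothers and CAST/EiJ fathers. Directional libraries with reduced ribosomal RNA were made from 300 ng of RNA each, with ERCC spike-in RNA added. The 2 biological replicates form 1 group, so there is no contrast between conditions, and values are compared between the replicates and between the deposited tables. The biosample labels name a different male for each replicate while both library labels name 1 male, so the spread between the libraries may not be a spread between animals.

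The mitochondrial genome is transcribed from both strands as long precursor RNAs, from which tRNAs are cut out so that the mRNAs and rRNAs between them are released. Its protein genes encode core subunits of respiratory complexes I, III, IV and V, whose other subunits are encoded in the nucleus, and its rRNAs and tRNAs serve the mitochondrial ribosome. In the adrenal cortex, mitochondria also carry the first and last steps of steroid hormone synthesis. Mitochondrial DNA is inherited from the mother. Stretches of mitochondrial DNA that were copied into the nuclear genome, called nuclear mitochondrial segments, can be identical in sequence to the genes they came from.

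Each library was deposited as a gene table and a first transcript table, which share 1 estimate, and as a second transcript file with its own estimate. All 37 genes had the same values in the gene table and in the first transcript table, so only the gene table is cited below. In replicate 2 the gene table held 30628771 expected counts and the second file 28100411 estimated counts, and in replicate 1 they held 35813366 and 35293226. An expected or estimated count is the number of reads that the authors' model gives to a gene after sharing out reads that match several, and TPM is that count per length, set to a fixed sum per library.

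The replicate 2 library stood apart by markers of other organs. Higher and lower here refer to counts scaled by TMM, which sets the bulk of genes equal between libraries, while the summed levels are TPM as deposited. All 6 pancreas markers were at least 2-fold higher in replicate 2, with summed levels of 6606 TPM in replicate 2 and 0.21 TPM in replicate 1, where Pnlip, Cpa1 and Ins2 were at 0. The 6 liver markers were also all higher, with 120 TPM in replicate 2 and 13.2 TPM in replicate 1. All 8 brown fat markers were higher, with 1157 TPM in replicate 2 and 833 TPM in replicate 1, and all 7 chromaffin cell markers too, with 1892 TPM in replicate 2 and 1675 TPM in replicate 1. By the gene table's TPM, 6 of the 8 brown fat markers and 3 of the 7 chromaffin cell markers were higher in replicate 2. Of all 14728 genes tested by that TPM, 2853 were higher in replicate 2 and 11826 lower. All 8 adrenal cortex markers were lower in replicate 2, with 8727 TPM against 15963 TPM in replicate 1, and all 5 erythroid markers were lower, with 1358 TPM against 3174 TPM. None of the 5 skeletal muscle markers reached 1 CPM (a count scaled to a library of fixed size).

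Mitochondrial genes took 18.5% of the counts in replicate 2 and 18.9% in replicate 1 of the second file, against 17.0% in replicate 2 and 18.3% in replicate 1 of the gene table. In the gene table the rRNA genes held most of this, with 11.9% in replicate 2 and 13.7% in replicate 1 (12.8 ± 1.23%, mean ± SD, n = 2). The protein genes held 5.07% in replicate 2 and 4.66% in replicate 1 (4.86 ± 0.287%). Relative to replicate 1, replicate 2 was thus higher in the protein share and lower in the rRNA share. Exact 95% intervals, which cover counting error only, were 5.06% to 5.08% in replicate 2 and 4.65% to 4.67% in replicate 1 for the protein genes. For the rRNA genes they were 11.91% to 11.93% in replicate 2 and 13.65% to 13.68% in replicate 1, so both differences between the libraries exceeded counting error.

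The tRNA genes had no count in either library in any table. With 0 of 30628771 counts in replicate 2, a floor of 3 counts allows all 22 together a share of up to 9.79e-06%, and in replicate 1 up to 8.38e-06%. They are 59 to 75 bases long. The gene table gave them an effective length, the number of positions at which a fragment can start, of 0, as it did for all 2398 genes of 99 bases or fewer. None of those 2398 genes had a count in the gene table or in the second file, so the zeros are those of a length class and carry no information on tRNA abundance in the adrenal gland. The shortest member (mt-Ts2, a serine tRNA, chrM:11613-11671, plus strand), the longest (mt-Tl1, a leucine tRNA, chrM:2676-2750, plus strand) and a tRNA of the other strand (mt-Tq, the glutamine tRNA, chrM:3772-3842, minus strand) are printed to show how short they are, on mm10 and 5′ to 3′.
mt-Ts2: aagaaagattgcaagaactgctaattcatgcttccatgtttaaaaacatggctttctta
mt-Tl1: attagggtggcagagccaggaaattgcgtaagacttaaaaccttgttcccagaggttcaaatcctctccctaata
mt-Tq: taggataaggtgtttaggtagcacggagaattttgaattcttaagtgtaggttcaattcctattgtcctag

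The other 19 tRNA genes, mt-Tf to mt-Tp along the genome, lie between or beside the protein and rRNA genes, and 8 of the 22 are on the minus strand.

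The rRNA genes were the most abundant members per length. The small-subunit rRNA mt-Rnr1 (chrM:70-1024, 955 bases) stood at 40517 TPM in replicate 2 and 54343 TPM in replicate 1 of the gene table. The large-subunit rRNA mt-Rnr2 (chrM:1094-2675, 1582 bases) stood at 40029 TPM in replicate 2 and 62062 TPM in replicate 1. The ratio of mt-Rnr1 to mt-Rnr2 was 0.886 in replicate 2 and 0.743 in replicate 1 of the second file, against 1.01 in replicate 2 and 0.876 in replicate 1 of the gene table. Their order thus differed between the libraries in the gene table alone. Since the libraries had ribosomal RNA reduced, these levels are those of what remained.

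Among the protein genes, the highest levels of the gene table were those of subunits of complexes IV, III and V. mt-Co1, the catalytic subunit of complex IV (cytochrome c oxidase; chrM:5328-6872), led in both libraries with 8326 TPM in replicate 2 and 11080 TPM in replicate 1 (9703 ± 1947 TPM, mean ± SD, n = 2). mt-Cytb, cytochrome b of complex III (chrM:14145-15288), followed with 5699 TPM in replicate 2 and 6800 TPM in replicate 1. The ranges of mt-Co1 and mt-Cytb did not overlap. mt-Atp8, a small membrane subunit of complex V (ATP synthase), stood at 5302 TPM in replicate 2 and 5214 TPM in replicate 1. mt-Atp6 (chrM:7927-8607), the complex V subunit that forms part of the proton channel, stood at 4794 TPM in replicate 2 and 5092 TPM in replicate 1.

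The 7 complex I (NADH dehydrogenase) genes lay lower than mt-Co1, mt-Cytb, mt-Atp8 and mt-Atp6 within each library. mt-Nd1 (chrM:2751-3707) had 4081 TPM in replicate 2 and 4852 TPM in replicate 1. It lay below mt-Atp6 in both libraries, although their ranges overlapped. mt-Nd4 (chrM:10167-11544) had 3659 TPM in replicate 2 and 4215 TPM in replicate 1. mt-Nd4l (chrM:9877-10173) had 3153 TPM in replicate 2 and 4373 TPM in replicate 1. The ranges of mt-Nd1, mt-Nd4, mt-Nd4l and mt-Nd2 each overlapped that of the next. Within each library mt-Nd1 was the highest of them and mt-Nd4 lay above mt-Nd2, while the place of mt-Nd4l differed between the libraries. mt-Nd2 (chrM:3914-4951) had 3174 TPM in replicate 2 and 3285 TPM in replicate 1. mt-Nd3 (chrM:9459-9806) had 2221 TPM in replicate 2 and 3000 TPM in replicate 1. mt-Nd5 (chrM:11742-13565) had 2315 TPM in replicate 2 and 2356 TPM in replicate 1, within the range of mt-Nd3. mt-Co3 of complex IV had 2763 TPM in replicate 2 and 2989 TPM in replicate 1. In both libraries mt-Co3 lay below mt-Nd1, mt-Nd4, mt-Nd4l and mt-Nd2.

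mt-Nd6 (chrM:13552-14070) is the only protein member read from the minus strand, where 8 of the tRNA genes also lie. It had 542 TPM in replicate 2 and 501 TPM in replicate 1, below all other protein genes but mt-Co2. The median of the plus-strand protein genes was 4.28 times mt-Nd6 in replicate 2 and 5.37 times in replicate 1 of the second file, against 6.31 and 8.57 times in the gene table, so mt-Nd6 was low in both tables. Its last bases overlap the end of mt-Nd5 by 14 bases on the other strand. The kit kept strand, but whether counting used it is not given in the sources used here.

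**Figure D1:**
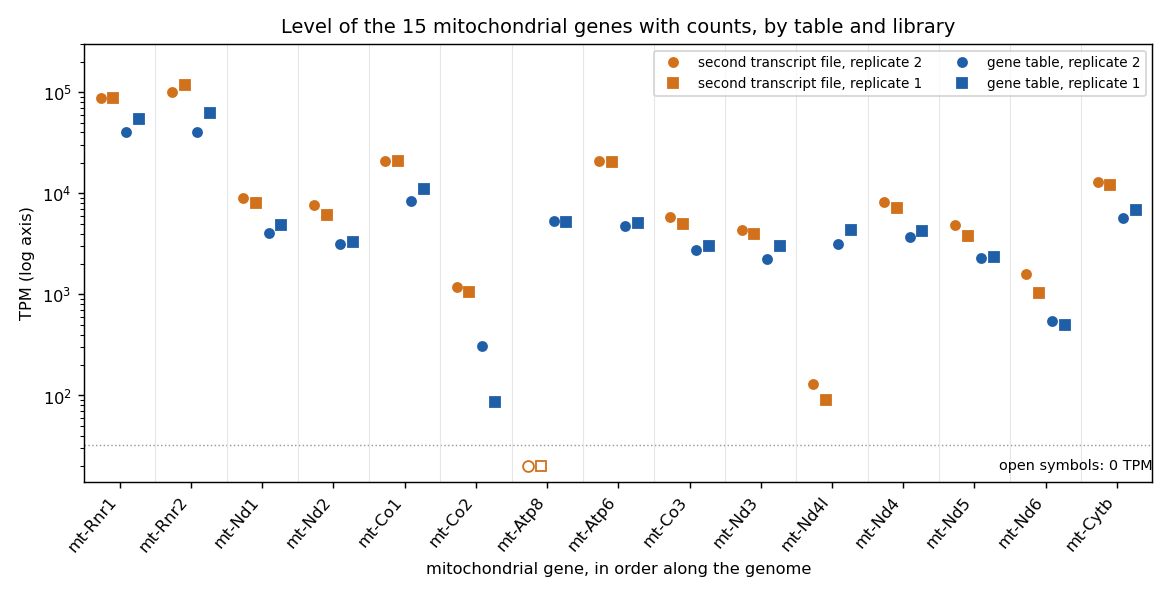
TPM (log axis) of the 15 mitochondrial genes that had counts, in order along the genome, with 1 point per library for the second transcript file (orange) and the gene table (blue). mt-Co2 is the lowest protein gene of the gene table, at 308 and 87.0 TPM in replicates 2 and 1, and mt-Atp8 and mt-Nd4l are the lowest of the second file, at 0 TPM (open symbols) and at 130 and 90.8 TPM.

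mt-Co2, the complex IV subunit that takes electrons from cytochrome c (chrM:7013-7696), was the lowest protein gene of the gene table. It held 7002 counts (308 TPM) in replicate 2 and 1798 counts (87.0 TPM) in replicate 1. mt-Co1, its partner in the same complex, was 27.01 times as abundant per length in replicate 2 and 127 times in replicate 1. mt-Co2 was also the member whose libraries lay farthest apart. Its reads have a second possible home, Gm28661 (chr1:24614885-24615565, minus strand), an annotated unprocessed pseudogene of 681 bases. Gm28661 matches the first 681 of the 684 bases of mt-Co2 with 0 mismatches. The first 60 bases of both genes and their last bases are printed to show this, with capitals for the 3 bases of mt-Co2 that lie beyond the copy.
mt-Co2 start: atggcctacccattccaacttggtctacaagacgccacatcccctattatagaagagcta
Gm28661 start: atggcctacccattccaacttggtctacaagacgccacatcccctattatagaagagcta
mt-Co2 end: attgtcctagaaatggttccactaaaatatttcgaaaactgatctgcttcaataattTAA
Gm28661 end: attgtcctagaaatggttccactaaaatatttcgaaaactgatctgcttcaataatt

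Gm28661 held most of the counts of the pair. The second file gave it 163589 counts in replicate 2 and 206068 in replicate 1, which left mt-Co2 with 4.98% of the pair in replicate 2 and 4.35% in replicate 1. The gene table gave Gm28661 209620 counts in replicate 2 and 266618 in replicate 1, and mt-Co2 had 3.23% of the pair in replicate 2 and 0.670% in replicate 1. With the counts of both genes given to mt-Co2 at its own TPM per count, its level was 9536 TPM in replicate 2 and 12990 TPM in replicate 1 of the gene table. On that basis mt-Co1 with the counts of its own copy was 0.964 times as abundant as mt-Co2 in replicate 2 and 0.943 times in replicate 1, in place of 27.01 and 127 times. Such a sum contains any RNA of the nuclear copy itself, which identical bases cannot tell apart from the mitochondrial transcript.

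The authors' posterior mean, an average over the ways of sharing the reads, gave another split. It put 56508 ± 6219 counts on mt-Co2 in replicate 2 and 37368 ± 6359 in replicate 1, where the error is the authors' posterior SD within a library. These are 8.07 times the expected count in replicate 2 and 20.8 times in replicate 1. The sum over the pair stayed at 216622 counts in replicate 2 and differed by under 1 count between both estimates. The count of mt-Co2 thus depended on whether the expected count or the posterior mean was taken, while the sum of the pair did not. In the second file the pair held 172166 counts in replicate 2 and 215430 in replicate 1. These are 0.795 and 0.803 times the expected counts of the pair in the gene table.

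mt-Co2 was 1 of 7 genes with a copy in 1 run of pseudogenes on chromosome 1 (chr1:24611535-24616197, 4663 bases, mm10). In the run the copies follow the order of the mitochondrial genome, from the end of mt-Co1 to the first part of mt-Nd4, all on the minus strand. The copies of mt-Co2, mt-Atp6, mt-Co3, mt-Nd4l and mt-Nd4 have 0 mismatches over their lengths of 294 to 876 bases. The copy of mt-Nd3, Gm28438, has the substitution T3C, with the mitochondrial base first and positions counted from the gene's first base. Gm29216 copies the last 492 bases of mt-Co1 with 6 mismatches, all near its start (T1056A, C1057T, A1059G, A1060G, C1062A and A1066T).

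The copies took 23.3% of the counts of the 7 pairs in replicate 2 and 25.3% in replicate 1 of the second file, against 37.7% and 41.3% in the gene table. By the posterior mean of the gene table they took 32.2% in replicate 2 and 35.7% in replicate 1. mt-Atp6 differed most between the tables, with 99.5% of its pair in replicate 2 and 99.1% in replicate 1 of the second file, against 43.4% and 35.4% in the gene table. Its copy Gm10925 had 797 counts in replicate 2 and 1573 in replicate 1 of the second file, against 141432 and 191302 in the gene table. mt-Co3, a core subunit of complex IV (chrM:8607-9390), kept 33.9% of its pair in replicate 2 and 28.5% in replicate 1 of the second file, against 35.9% and 28.8% in the gene table. mt-Co1 kept 98.8% in both libraries of the second file, against 90.5% and 90.4% in the gene table.

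The remaining pairs were mostly assigned to the mitochondrial gene. mt-Nd4 had 100% of its pair in replicate 2 and 97.3% in replicate 1 of the second file, where the copy Gm28439 received 5192 counts, against 100% in both libraries of the gene table. mt-Nd4l had 100% in both libraries of the second file, against 89.4% in replicate 2 and 94.96% in replicate 1 of the gene table, where its copy Gm10222 received 2863 and 1622 counts. mt-Nd3 had 100% in both tables. Genes matched without a mismatch thus stood at both ends of the range, mt-Nd4 at the top and mt-Co2 at the bottom. Their copies differ in extent, covering 876 of the 1378 bases of mt-Nd4 and 681 of the 684 of mt-Co2. The copy of mt-Nd4l, which also stood high, covers 294 of its 297 bases.

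**Figure D2:**
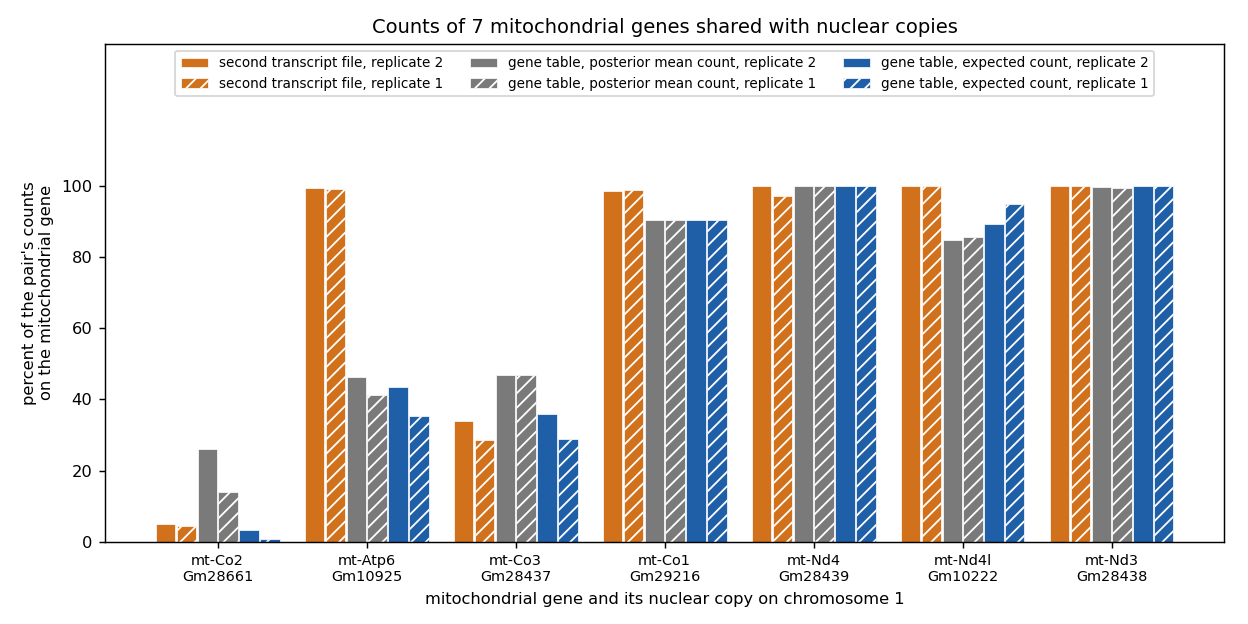
Percentage of the counts of a gene and its nuclear copy that were on the mitochondrial gene, for 7 pairs, in the second transcript file (orange), the gene table's posterior mean (grey) and the gene table's expected count (blue), with solid bars for replicate 2 and hatched bars for replicate 1. mt-Co2 is under 5% in both tables by the expected or estimated count, and mt-Atp6 is over 99% in the second file and under 44% in the gene table.

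Adding the copies changed the order of the protein genes. Each sum takes the counts of gene and copy at the gene's own TPM per count, since Gm29216 covers only part of mt-Co1. In the gene table mt-Atp6 with its copy stood at 11052 TPM in replicate 2 and 14397 TPM in replicate 1. mt-Co1 with its copy stood at 9196 TPM in replicate 2 and 12251 TPM in replicate 1. mt-Co3 with its copy stood at 7703 TPM in replicate 2 and 10388 TPM in replicate 1. On these sums all 3 complex IV subunits and mt-Atp6 lay above mt-Cytb in both libraries. Within each library the mt-Atp6 sum lay above that of mt-Co2, and the mt-Co2 sum above that of mt-Co1, although their ranges over the libraries overlapped. The mt-Co2 sum was the highest of the second file, with 23563 TPM in replicate 2 and 24418 TPM in replicate 1, followed by the mt-Co1 sum with 21031 TPM in replicate 2 and 21002 TPM in replicate 1. Of 8 other nuclear genes that share a run of 50 bases with a member, Gm13340 and Gm13341 on chromosome 2, which resemble mt-Co1 and mt-Co2, had 33.9 to 344 counts in any library and table, and the other 6 fewer than 100 on average.

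Between the tables, the shortest protein genes differed most. A gene was counted as apart when its second-file count was at least 2-fold higher or lower than its gene-table count in both libraries. Of the 15 members with counts 3 were apart, all lower in the second file (mt-Atp8, mt-Nd4l and mt-Nd3). Across all 19580 genes with at least 10 counts on average in either table, the share apart was 12.9%, with 3.03% lower and 9.84% higher in the second file. The members' share was above that background, and they are also the 3 shortest protein genes.

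mt-Atp8 (chrM:7766-7969, plus strand, 204 bases) was listed at 0 counts in both libraries of the second file, against 21617 counts in replicate 2 and 19338 in replicate 1 of the gene table. With a floor of 3 counts per library, this is at least 7206-fold lower in replicate 2 and at least 6446-fold lower in replicate 1. mt-Nd4l (297 bases) had 176 counts in replicate 2 and 149 in replicate 1 of the second file, against 24243 and 30588 in the gene table. That is 0.726% of the gene-table count in replicate 2 and 0.487% in replicate 1. Both genes overlap a longer neighbour that is read in the same direction. mt-Atp8 ends 43 bases inside mt-Atp6 and mt-Nd4l 7 bases inside mt-Nd4, and both are printed whole, 5′ to 3′, with the overlap in capitals, to show how little of each is shared.
mt-Atp8: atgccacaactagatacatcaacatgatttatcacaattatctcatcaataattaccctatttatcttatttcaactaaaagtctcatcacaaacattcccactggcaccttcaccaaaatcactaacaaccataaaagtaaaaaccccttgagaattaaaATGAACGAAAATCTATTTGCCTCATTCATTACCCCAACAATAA
mt-Nd4l: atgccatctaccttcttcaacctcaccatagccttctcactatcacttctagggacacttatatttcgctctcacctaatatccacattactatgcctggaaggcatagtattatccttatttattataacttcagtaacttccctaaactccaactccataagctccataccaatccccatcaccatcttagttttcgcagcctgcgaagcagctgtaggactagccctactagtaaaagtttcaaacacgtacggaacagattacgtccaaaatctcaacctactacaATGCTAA

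The ratio to the longer neighbour shows the size of this difference. In the second file mt-Atp8 stood at 0 times the TPM of mt-Atp6 in both libraries, against 1.11 times in replicate 2 and 1.02 times in replicate 1 of the gene table. With the counts of Gm10925 added to mt-Atp6, the gene-table ratio was 0.480 in replicate 2 and 0.362 in replicate 1. mt-Nd4l stood at 0.0158 times mt-Nd4 in replicate 2 and 0.0126 times in replicate 1 of the second file, against 0.862 and 1.038 times in the gene table. Each pair of neighbours is read from 1 messenger RNA in mammals, and the gene table gave the members of the mt-Nd4l and mt-Nd4 pair nearly equal levels.

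mt-Nd3 (348 bases) was lower in the second file by count and higher by TPM. It had 7554 counts in replicate 2 and 8328 in replicate 1 of the second file, against 21474 and 26383 in the gene table, which is 35.2% and 31.6% of the gene-table count. Its TPM was 4382 in replicate 2 and 3996 in replicate 1 of the second file, against 2221 and 3000 in the gene table. The direction thus turned with the unit. The second file gave mt-Nd3 an effective length of 84.2 bases in replicate 2 and 83.8 in replicate 1, against 249 in the gene table.

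Effective lengths were smaller in the second file for all members with counts, though not by a constant number of bases. The second-file value of mt-Nd5, the longest member at 1824 bases, was its length less 327 bases in replicate 2 and less 329 in replicate 1. In the gene table the effective length of all 32088 genes with 1 transcript and a value over 0 was the length less 99 bases. For mt-Atp8 it was 44.7 bases in replicate 2 and 44.8 in replicate 1 of the second file, against 105 in the gene table. As a percentage of the gene-table value in replicate 1, the second-file effective length was 33.3% for mt-Nd4l, 42.7% for the shorter mt-Atp8 and 86.7% for mt-Nd5.

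Most members from mt-Nd6 (519 bases) upward lay closer together between the tables. mt-Nd6 had 72.0% of its gene-table count in replicate 2 and 67.3% in replicate 1 of the second file. mt-Cytb had 93.9% and 96.5%, mt-Nd5 96.5% and 98.4%, and mt-Co1 111% in both, again replicate 2 before replicate 1. mt-Co2 had 122% in replicate 2 and 521% in replicate 1, so its ratio was past 2-fold in replicate 1 alone. Over the 15 members the length and the mean log2 ratio of second-file to gene-table counts had a Spearman rho of 0.62, and over the 12 members longer than 400 bases 0.26. All members share both libraries, and no p-value is given for these descriptions.

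Nuclear genes with 1 transcript are given by length for comparison. Of those 200 to 299 bases long, 94.8% were at least 2-fold lower in the second file in both libraries, and 96.6% were listed at 0 there. Genes entered by their counts in either table, so those at 0 in the second file entered by the gene table alone. For them, being lower in the second file follows from that filter. At 300 to 399 bases, the range of mt-Nd3, 81.7% were lower and 50% were at 0 in the second file. At 400 to 599 bases, the range of mt-Nd6, 43.2% were lower and 19.9% at 0. At 1000 to 1999 bases, where mt-Rnr2, mt-Nd2, mt-Co1, mt-Nd4, mt-Nd5 and mt-Cytb lie, 4.10% were lower and 0.969% at 0. The 3 members apart lay in length ranges where most nuclear genes that entered were apart. For the genes at 0 the filter fixed this in advance, and the part of length was not tested. The median log2 ratio of these nuclear genes was -8.04 in the range of mt-Atp8 and mt-Nd4l. With 96.6% of them at 0 in the second file, that median and its quartiles follow their gene-table counts. mt-Nd4l had log2 ratios of -7.10 in replicate 2 and -7.68 in replicate 1, which therefore cannot be placed against those genes. mt-Nd3, at -1.51 in replicate 2 and -1.66 in replicate 1, lay above the upper quartile of its range, -2.08.

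**Figure D3:**
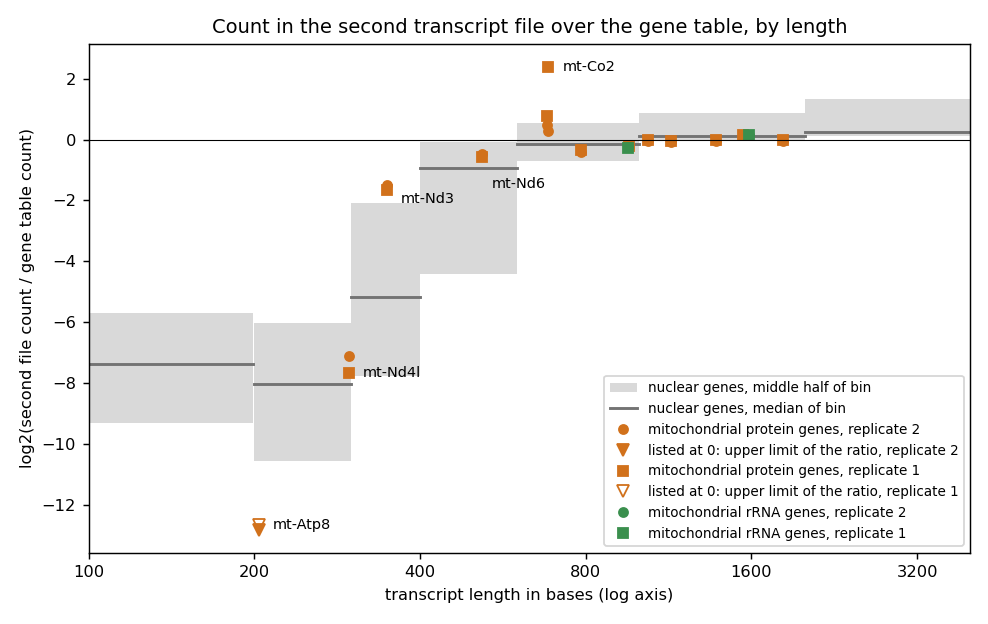
log2 ratio of the second-file count to the gene-table count against transcript length (log axis) for the 15 mitochondrial genes with counts, over the median and interquartile range of nuclear genes with 1 transcript in bins of length (grey), with 0.5 added to counts. mt-Nd6 lies inside the range of nuclear genes of its length, mt-Nd3 lies above that of its own, and mt-Atp8 is drawn at the upper limit that a floor of 3 counts gives. At 200 to 299 bases, 96.6% of the nuclear genes were at 0 in the second file, so the grey range there follows gene-table counts.

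By TPM the classes differed more between the tables than by count. The protein genes summed to 97369 TPM in replicate 2 and 89260 TPM in replicate 1 of the second file, against 46337 and 53844 TPM in the gene table. Their counts in the second file were 0.977 times those of the gene table in replicate 2 and 1.01 times in replicate 1. The rRNA genes summed to 187932 TPM in replicate 2 and 203450 TPM in replicate 1 of the second file, against 80546 and 116405 TPM in the gene table. All 37 members together made up 28.5% of TPM in replicate 2 and 29.3% in replicate 1 of the second file, against 12.7% and 17.0% in the gene table. The rRNA-to-protein ratio of TPM was closer, with 1.93 in replicate 2 and 2.28 in replicate 1 of the second file, against 1.74 and 2.16 in the gene table.

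Within the protein class the shares of TPM kept much of their order. mt-Co1 held 21.3% in replicate 2 and 23.2% in replicate 1 of the second file, against 18.0% and 20.6% in the gene table. mt-Cytb held 13.3% in replicate 2 and 13.4% in replicate 1 of the second file, against 12.3% and 12.6%. mt-Atp6 held 21.3% in replicate 2 and 22.7% in replicate 1 of the second file, against 10.3% and 9.46%. mt-Atp8, which held 11.4% in replicate 2 and 9.68% in replicate 1 of the gene table, was at 0 in the second file.

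Between the libraries, counts were scaled by TMM, and the log2 ratio is replicate 2 over replicate 1. With 1 library on each side there is no replicate check and no p-value. By the gene table, 11 of the 13 protein genes were higher in replicate 2, with a median log2 ratio of 0.31, against 0.01 over all 14780 genes with at least 1 CPM. Scaled by spike-ins, every ratio is lower by 0.89 and the median of the protein genes is -0.58, so the direction holds relative to the bulk of genes and not to the spike-ins. By the gene table's TPM, 3 of the 13 protein genes (mt-Co2, mt-Atp8 and mt-Nd6) were higher in replicate 2 and 10 lower. Over all 14728 genes tested by that TPM, 2853 were higher and 11826 lower, so the members' share was near that of all genes. The median log2 ratio was -0.11 for the protein genes, against -0.39 over all genes tested. The second file's TPM had 12 of 13 higher in replicate 2, and the share over all genes is not given for it. Of 15 members 1, mt-Co2, was at least 2-fold apart (6.86% of all genes, 5.12% higher in replicate 2). The second file had 0 of 14 (8.63% of all genes). Leaving out mt-Atp8, which was at 0 in both libraries, 11 of 12 protein genes of the second file were higher in replicate 2, with a median of 0.15.

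mt-Co2 was 4.76-fold higher in replicate 2 in the gene table (exact 95% interval on the ratio of both counts 4.52 to 5.01, counting error only). By the posterior mean it was 1.85-fold higher and in the second file 1.09-fold. Summed with Gm28661 its log2 ratio was -0.02 in the gene table. The distance between the libraries was thus in the split of the pair and not in its sum. Of the other pairs, mt-Atp6 had a log2 ratio of 0.34 alone and 0.04 with its copy, and mt-Co3 had 0.31 alone and -0.01 with its copy. With each gene summed with its copy, the median of the 13 protein genes was 0.17.

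By TMM-scaled counts, the members without a copy on chromosome 1 differed by less than 1.5-fold in the gene table. mt-Nd6 was 1.45-fold higher in replicate 2, with 8836 counts in replicate 2 and 7434 in replicate 1, and 1.52-fold higher in replicate 2 by the second file. mt-Atp8 was 1.37-fold, mt-Nd5 1.32-fold and mt-Nd2 1.30-fold higher in replicate 2. mt-Cytb and mt-Nd1 were 1.13-fold higher each. mt-Rnr1 had a log2 ratio of 0.00 and mt-Rnr2 of -0.21, so the rRNA genes did not share the direction of the protein genes. By the scaled counts, markers of pancreas, liver, brown fat and chromaffin cells were higher and those of cortex and erythroid cells lower in replicate 2, as given above, and their part in these ratios was not tested. In bulk tissue, fewer cells of a type and less RNA per cell cannot be told apart.

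**Figure D4:**
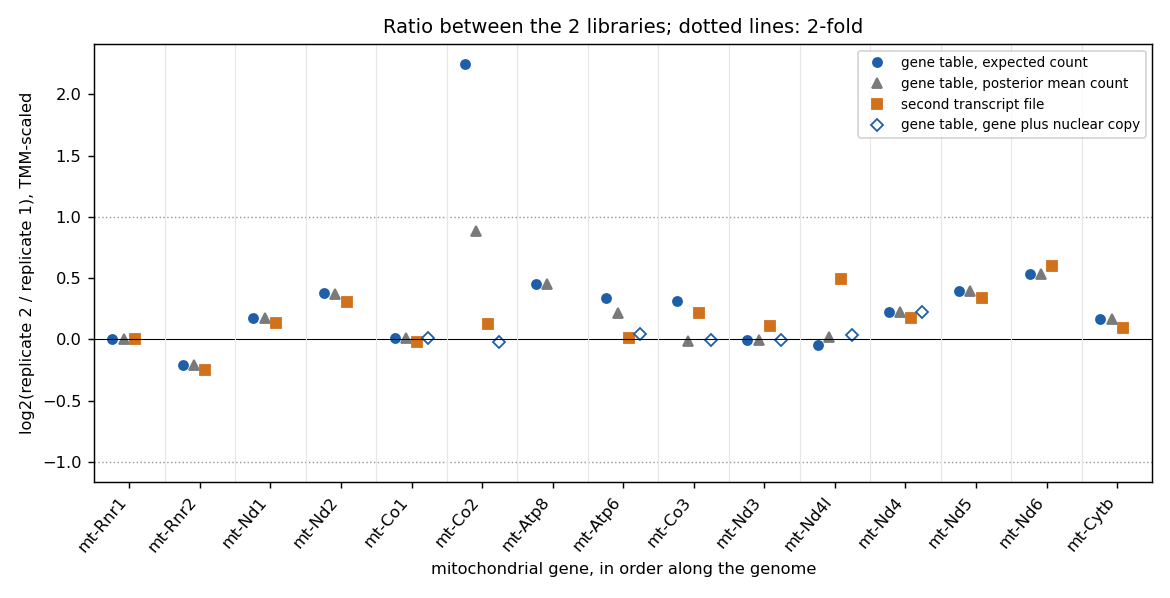
log2 ratio of replicate 2 to replicate 1 for the 15 mitochondrial genes with counts, TMM-scaled, by the gene table's expected count (blue circles), its posterior mean (grey triangles), the second transcript file (orange squares) and the gene table's sum of a gene and its nuclear copy (open diamonds, 7 genes), with dotted lines at 2-fold. mt-Co2 is past 2-fold by the expected count, at 2.25, and at -0.02 with its copy, while the other members lie between -0.25 and 0.60 in each estimate.

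The nuclear partners of the mitochondrial subunits were less abundant per gene. The 13 mitochondrial protein genes summed to 3.41 times the TPM of 77 nuclear genes of complexes I to V in replicate 2 and 3.51 times in replicate 1 of the second file, against 4.34 and 4.26 times in the gene table. In complex I the mean per mitochondrial gene was 2735 TPM in replicate 2 and 3226 TPM in replicate 1 of the gene table, against 88.3 and 108 TPM per nuclear gene. This was 30.96 times in replicate 2 and 29.9 times in replicate 1. In complex III, where mt-Cytb is the only mitochondrial gene, the ratio was 33.4 in replicate 2 and 34.1 in replicate 1. In complex IV it was 16.4 in replicate 2 and 18.2 in replicate 1, with the counts on the chromosome 1 copies left out. In complex V it was 30.1 in replicate 2 and 25.1 in replicate 1. With the copies added, the order of these gene-table ratios turned. Complex IV stood at 38.1 in replicate 2 and 45.8 in replicate 1, and complex V at 48.8 in replicate 2 and 47.8 in replicate 1. Complex I stood at 31.6 in replicate 2 and 30.3 in replicate 1. In the second file with the copies added, complex IV was highest, at 31.7 in replicate 2 and 38.04 in replicate 1. Without them it stood there at 14.3 and 16.2. With them complex III stood at 27.2 and 29.3 in the second file, complex V at 23.2 and 23.95, and complex I at 22.6 and 21.1.

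Nuclear genes with high mean TPM are given for scale, from the gene table. They included Ndufc1 (196 TPM) and Ndufa3 (192 TPM) of complex I and Sdha (175 TPM), Sdhc (121 TPM) and Sdhb (117 TPM) of complex II, which has no mitochondrial gene. In complex III they were Uqcrq (319 TPM), Uqcr10 (268 TPM) and Uqcr11 (239 TPM), and in complex IV Cox4i1 (419 TPM), Cox6a1 (407 TPM) and Cox8b (334 TPM). In complex V they were Atp5b (849 TPM), the catalytic subunit, Atp5a1 (309 TPM) and Atp5d (204 TPM). mt-Nd6, at 521 TPM on average, and mt-Co2, at 198 TPM without its copy, lay below Atp5b, and all other mitochondrial protein genes lay above all 77 nuclear genes.

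By TMM-scaled counts, 68 of the 77 nuclear genes were higher in replicate 2 and 9 lower, none by 2-fold, with a median log2 ratio of 0.17, the same as for the 13 mitochondrial genes summed with their copies. By the gene table's TPM the direction turned, with 4 higher in replicate 2 and 73 lower and a median of -0.25, against -0.39 over all genes. Of all 14728 genes tested by that TPM, 2853 were higher and 11826 lower. By the scaled counts all 13 nuclear complex IV genes were higher, against 2 of 13 by TPM, among them Cox8b and Cox7a1, which are also on the brown fat list. Genes of mitochondrial DNA transcription and replication had a median of 0.15 over 14 genes, of which 1 was past 2-fold (Tefm, a transcription elongation factor, 2.18-fold higher in replicate 2), about the share of all genes (6.86%). Their highest levels were those of Polg, the mitochondrial DNA polymerase, at 17.9 TPM, Polrmt, the mitochondrial RNA polymerase, at 14.98 TPM, and Mterf3 at 14.8 TPM. Genes of mitochondrial RNA processing had a median of -0.11 over 21 genes, with 8 higher and 13 lower in replicate 2 and none past 2-fold. Slirp, which binds mitochondrial mRNAs, Hsd17b10, a subunit of the RNase that frees tRNA 5′ ends, and Rexo2 led them at 40.5, 40.1 and 33.0 TPM. Mitochondrial tRNA synthetases had a median of 0.00 over 17 genes, and Lars2, which charges leucine tRNAs, was 2.01-fold higher in replicate 2, the 1 gene of the list past 2-fold (5.12% of all genes were higher by that much). By mean TPM of the gene table Lars2 led that list at 29.0 TPM, followed by Fars2 at 20.6 TPM and Iars2 at 19.8 TPM. The second file gave Lars2 280 TPM in replicate 2 and 132 TPM in replicate 1, against 34.8 and 23.2 TPM in the gene table. Fars2 stood at 39.2 and 41.1 TPM there, against 16.7 and 24.4 TPM.

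**Figure D5:**
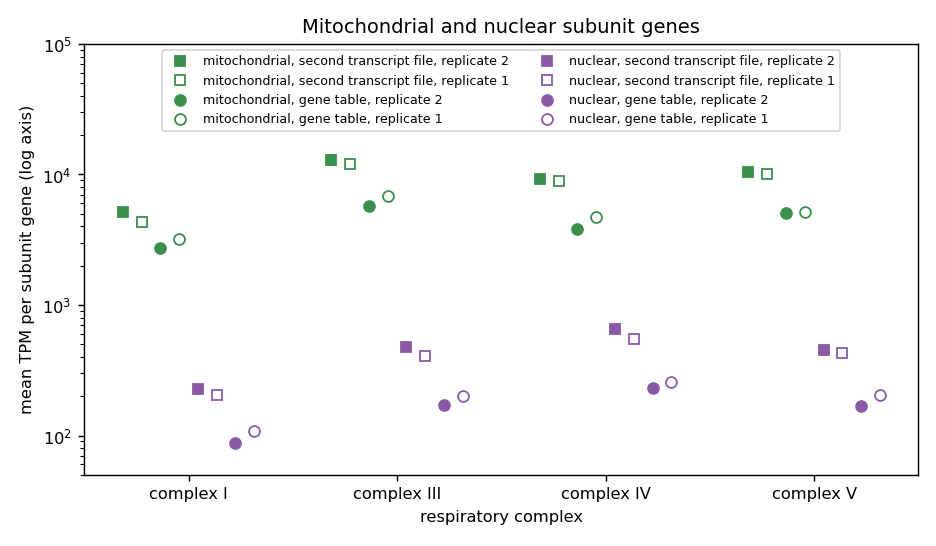
Mean TPM per gene (log axis) of mitochondrial (green) and nuclear (purple) subunit genes of 4 respiratory complexes, in the second transcript file (squares) and the gene table (circles), filled for replicate 2 and open for replicate 1. Without the chromosome 1 copies, as plotted, the mitochondrial genes lie above the nuclear genes in each complex, table and library, by 16.4 and 18.2 times in complex IV of the gene table and by 33.4 and 34.1 times in complex III.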

How the data were processed

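Total RNA-seq of 2 adrenal libraries was used as deposited, on the mm10 genome with GENCODE M21 genes. The gene table and first transcript table were laid out as RSEM output, per the file headers, and hold the authors' expected counts, posterior means with SDs and TPM, made from a transcriptome alignment. The second transcript file was laid out as kallisto output, per the file headers, with estimated counts and TPM made by the authors from the sequencing reads, and its transcripts were summed per gene here. No source used here gives program names or versions. The 26248 tRNA entries, which took 7.81 counts in replicate 2 and 8.06 in replicate 1, and the spike-ins, which took 1.50% and 0.843%, stand for no annotated gene and do not enter the comparisons.

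TPM was used as deposited for levels. Counts were compared between libraries with TMM scaling (edgeR 4.0.16, R 4.3.3; factors 0.982 in replicate 2 and 1.02 in replicate 1, from genes with a mean of at least 1 CPM) and between tables without scaling. In both 0.5 was added, and 2-fold was the threshold. No p-value was computed, since each side is 1 library. Shares have exact Clopper-Pearson 95% intervals, and ratios exact 95% intervals. Neither these nor the floor of 3 counts cover more than counting error, as reads that carry no molecular identifier are not independent molecules. Copies are nuclear genes whose GENCODE M21 transcript shares a run of 50 bases with a member, and those with a mean of at least 100 counts in a table are named, up to 8 by count. Gm28438 is named besides, since it lies in the same run of copies. All printed sequences come from the GENCODE M21 transcripts. All members are accounted for, the tRNA genes printed were chosen by length and strand, and each nuclear list names its 3 highest genes by mean TPM and any past 2-fold, apart from 1 gene that counts in list totals and is not reported here. The members and lists were chosen with earlier results of these data known. The call rule was run on simulated counts that held counting error only and planted changes past the threshold. That run does not bear on spread between libraries or on reads shared with copies. Other software was Python 3.11.15, scipy 1.17.1, pandas 2.3.3, numpy 2.4.6 and matplotlib 3.10.9, and DESeq2 1.42.0 gave size factors for an alternative.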

Additional observations from a re-analysis of the deposited data

How the results depend on the processing

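The median log2 ratio of replicate 2 to replicate 1 of the protein genes, 0.31 as reported, was 0.30 with DESeq2 size factors, 0.26 with total counts, 0.37 with nuclear protein-coding counts, -0.58 with spike-in counts and 0.15 in the second file. It was 0.21 with posterior means, 0.17 with copies added and -0.11 by TPM as deposited, all chosen after seeing the data. The number of members at least 2-fold apart between the libraries was 1 as reported and 2 with spike-in scaling, mt-Rnr2 being the other. It was 0 in the second file, with posterior means and with copies added, where the ratio of mt-Co2 turned to -0.021. The share of counts on protein genes, 4.86%, was 6.22% of nuclear protein-coding and mitochondrial counts and 6.71% with copies added, and that of rRNA genes, 12.8%, was 16.3% of the smaller total. Summed protein TPM, 50091, was 157015 when rescaled over protein-coding genes, 93314 in the second file and 76430 with copies added. With TPM in place of counts 5 members, not 3, were at least 2-fold apart between the tables (mt-Co2, mt-Atp8, mt-Atp6, mt-Nd4l and mt-Nd6), and the log2 ratio of mt-Nd3 turned to 0.70. The median log2 ratio between tables of the protein genes, -0.07, was -0.23 with posterior means and -0.32 with copies added. Of the other recomputed values, 35 of these summaries and 109 of single genes moved by less than the spread or interval of the value (for numbers of genes, by less than 1.5 times), and 113 of single genes moved by more. The cause of these differences was not tested. Depth limits little here, since all members with counts but mt-Nd4l in the second file had over 1000. No paired analysis was possible because there is 1 group.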
